A study of Mus musculus with 7 samples.

Results

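The samples described here were uterine horns infused with CXCL12 and taken at Day 8 (3 libraries) or at Day 3 (2 libraries), chosen by the labels alone, and they made up 5 of the 7 samples of the series. All genes listed for them were compared between the days. CXCL12 is a chemokine that acts through the receptors CXCR4 and ACKR3 (also called CXCR7). In C57BL/6 female mice, CXCL12 was infused into the cavity of one uterine horn and saline alone went into the other horn. The remaining 2 libraries came from saline-treated horns, for which the labels give no day. RNA of uterine tissue was sequenced by QuantSeq, which counts reads near the 3′ end of polyadenylated transcripts. The sources used here name no stage of the oestrous cycle for these animals, and no Day 8 saline library can be told from a Day 3 one, so time after infusion and cycle stage cannot be told apart. The labels do not say that the samples of a group came from separate animals, and p-values measure the spread between samples. In the main fit, the 2 saline libraries also entered that spread.

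The lining and glands of the mouse uterus follow the ovarian hormones. Oestrogen drives epithelial cells to divide and induces secreted and cornified-envelope proteins, and progesterone stops that division, prepares the stroma and switches on gland products and implantation regulators. Adrenal glucocorticoids and trace metals act on a further set of genes, among them the metallothioneins. All of this is background, and the values below are levels of RNA in bulk tissue, in which fewer cells of a type and less RNA per cell cannot be told apart.

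The steroid receptors of the uterus, chosen after their values were seen, were read in every library. Esr1, the main oestrogen receptor of the uterus, lay between 228 and 352 CPM (read counts scaled by the unnormalized library total) in the 7 libraries, and Pgr, the progesterone receptor, between 183 and 870.3 CPM. These levels do not settle the tissue label, since oviduct and ovarian genes were also present. Ovgp1, an oviduct gene, lay between 235 and 729 CPM in the 7 libraries. The 6 libraries deposited as counts held 6908790 to 12308982 reads, and Day 3 replicate 1, deposited as log2 values, was estimated at 10449108, as were its counts and CPM throughout. The ribosomal transcript Rn45s took 9.36% to 13.0% of the reads. Day 8 replicate 1 stood apart. Its table carries the name of a Day 3 library while its label says Day 8, and it was kept at the label. Across all tested genes its log2 values correlated at 0.947 and 0.948 (Pearson's r across genes, which are not independent replicates) with the Day 3 libraries, and at 0.893 and 0.894 with Day 8 replicates 2 and 3, which correlated at 0.933 with each other. The closeness was not particular to Day 3. Day 8 replicate 1 correlated at 0.8911 and 0.9425 with saline replicates 1 and 2, and saline replicate 2 at 0.9481 and 0.9414 with Day 3 replicates 1 and 2. The 2 Day 3 libraries correlated at 0.974, and their counts still differed by more than sampling noise, with a chi-square of 10.3 per degree of freedom over 14766 genes. For each gene list below, the count of called members is therefore also given without Day 8 replicate 1.

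Between Day 8 and Day 3, limma tested 14876 genes over all 7 libraries and called 693, by a fold of at least 2 with P under 0.05 before adjustment. Of these, 335 were higher at Day 8 (2.25% of genes tested) and 358 were lower (2.41%). At the Benjamini-Hochberg threshold of 0.1, limma passed 0 genes, the smallest adjusted p was 0.267 and 1070 genes had an unadjusted P under 0.05. With counts estimated for Day 3 replicate 1, edgeR also passed 0 genes at the adjusted p and called 828 by fold and P (68.0% of them higher at Day 8, against 48.3% in limma), and DESeq2 passed 240 and called 1018 (69.4% higher). A call is used below in this sense: past the fold and the unadjusted P, with no protection against the number of genes tested. Without Day 8 replicate 1, 1675 of 14791 genes were called, 842 higher (5.69%) and 833 lower (5.63%). In that fit, 222 genes higher (1.5%) and 240 lower (1.62%) also passed the adjusted p. The 612 genes called both times were 88.3% of the first list and 36.5% of the second. Leaving out any other CXCL12 library lowered the calls, to 277 without Day 3 replicate 1, 314 without Day 3 replicate 2, 470 without Day 8 replicate 2 and 474 without Day 8 replicate 3. Of the 43 gene lists used below, 36 had more called members without Day 8 replicate 1, whereas 34, 35, 29 and 32 had fewer without Day 3 replicate 1, Day 3 replicate 2, Day 8 replicate 2 and Day 8 replicate 3. Each list count below is to be read beside the shares over all genes tested. These were 2.25% higher and 2.41% lower, and 5.69% and 5.63% without Day 8 replicate 1.

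**Figure D1:**
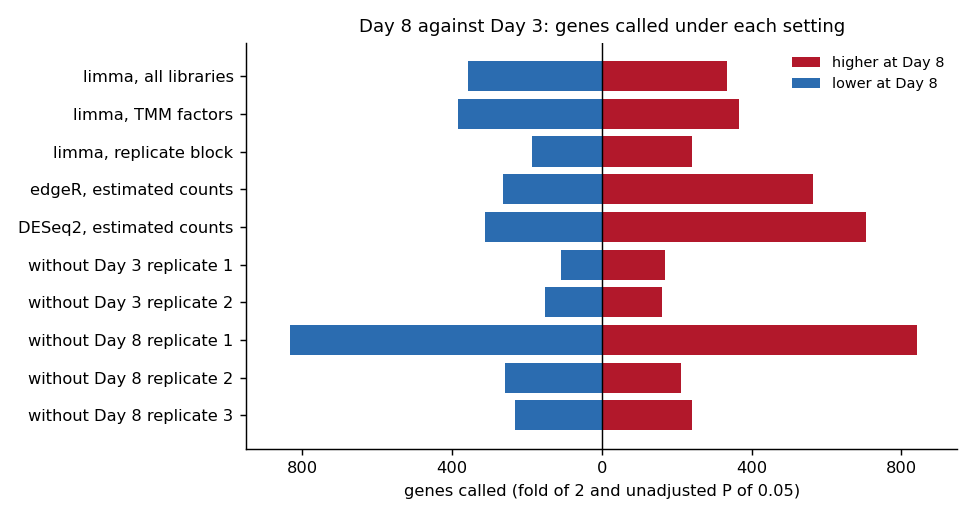
Genes called between CXCL12 Day 8 and CXCL12 Day 3 by a fold of at least 2 with P under 0.05 before adjustment. Each bar is 1 setting, with genes higher at Day 8 to the right and genes lower at Day 8 to the left. The limma fit over all libraries called 693 genes, and among these settings the bar of the limma fit without Day 8 replicate 1 is the longest, at 842 higher and 833 lower.

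All 3 Day 8 libraries lay above both Day 3 libraries in 2332 genes (15.7%) and below both in 2378 (16.0%). With Day 8 replicates 2 and 3 alone, these counts were 4620 (31.2%) and 4852 (32.8%) of 14791.

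Genes of mitosis were lower at Day 8 than at Day 3. Of 45 tested members, 39 were called lower at Day 8 and 0 higher, the remaining 6 also had lower fitted values, and in 44 the 3 Day 8 libraries lay below both Day 3 libraries. The median log2 difference over the list was -1.98, where the median over all genes tested was 0.00055. Hmmr, a spindle and hyaluronan-binding protein, measured 107 and 111 CPM in the Day 3 libraries and 20.1, 13.7 and 12.1 CPM in Day 8 replicates 1, 2 and 3, beside 25.6 and 88.9 CPM in saline. All Day 8 libraries were therefore far below Day 3, and the saline libraries lay between them (log2 difference -2.80, SE 0.53, adjusted p = 0.554). Cenpa, the histone that marks centromeres, stood at 64.3 and 69.6 CPM at Day 3 and 8.23, 15.8 and 14.5 CPM at Day 8 (log2 difference -2.40, SE 0.45, adjusted p = 0.554), with Day 8 replicate 1 the lowest of all. Cdc20, which activates the complex that starts anaphase, was at 39.3 and 40.9 CPM and then 13.2, 7.39 and 8.85 CPM (log2 difference -2.06, SE 0.43, adjusted p = 0.651). Mki67 and Top2a, general marks of dividing cells chosen after their values were seen, measured 83.3 and 72.1 and 475 and 409.6 CPM at Day 3 and 39.4, 23.8 and 21.7 and 208, 97.5 and 103 CPM at Day 8. All 5 genes were called lower.

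The summed level of the mitosis list was 4097 and 3859.6 CPM at Day 3 and 1868, 1044 and 844 CPM at Day 8. In saline it was 1730.0 and 4621 CPM, so that these 2 libraries covered nearly the whole range between the days. Without Day 8 replicate 1, 40 of 45 were called lower and 20 also passed the adjusted p, 0 of them higher. Leaving out Day 3 replicate 1 or replicate 2 reduced the called members to 23 and 24, and edgeR with estimated counts called 33.

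Promoter sequence is shown for the 3 mitosis genes with the smallest P, since 27 of the 36 list members found in RefSeq's promoter table (75%) hold a CCAAT letter run, on either strand, in the 250 bases before the transcript start, where 37.5% of all 27025 gene symbols do. The share among DNA replication genes was 58.8% (20 of 34) and in the glucocorticoid and metallothionein list 52.4%. The symbols include genes not tested here, and no share over the tested genes alone was taken. Other motifs were searched in the same windows and on both strands. The cell cycle homology region (TTTGAA or TTCGAA) was in 36.1% of the mitosis genes, 20.6% of the DNA replication genes and 19.6% of all symbols, and the E2F site (TTTGGCGC or TTTCGCGC) in 2.78%, 17.6% and 0.759%. The capitals mark CCAAT or its reverse complement ATTGG. Sequences are from RefSeq, build GRCm38.p6, each 5′ to 3′ on the strand of its gene: Cdc20 at chr4:118437344-118437593 (minus strand), Cenpa at chr5:30666636-30666885 (plus) and Hmmr at chr11:40733438-40733687 (minus).
Cdc20: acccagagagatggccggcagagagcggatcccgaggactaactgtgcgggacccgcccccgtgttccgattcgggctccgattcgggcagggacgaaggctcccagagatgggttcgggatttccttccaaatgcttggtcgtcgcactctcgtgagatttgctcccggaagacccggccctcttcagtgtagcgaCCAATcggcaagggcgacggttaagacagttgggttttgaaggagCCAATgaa
Cenpa: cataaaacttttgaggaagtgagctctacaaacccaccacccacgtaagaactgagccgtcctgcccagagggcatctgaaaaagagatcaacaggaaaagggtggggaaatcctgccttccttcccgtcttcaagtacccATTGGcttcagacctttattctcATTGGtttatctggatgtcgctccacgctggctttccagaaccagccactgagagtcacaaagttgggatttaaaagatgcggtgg
Hmmr: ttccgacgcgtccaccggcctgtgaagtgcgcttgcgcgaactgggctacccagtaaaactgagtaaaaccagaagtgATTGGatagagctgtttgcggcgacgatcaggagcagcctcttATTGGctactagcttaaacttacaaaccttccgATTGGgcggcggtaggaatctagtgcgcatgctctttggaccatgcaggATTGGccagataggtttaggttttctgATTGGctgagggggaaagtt
The letters occur 2 times in the Cdc20 window, 2 times in that of Cenpa and 5 times in that of Hmmr.

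Genes of DNA replication, the step before mitosis, did not follow the mitosis list in Day 8 replicate 1. Of 42 tested members, 1 was called lower, Rrm1, a subunit of the enzyme that makes deoxyribonucleotides, with 136 and 127 CPM at Day 3 and 98.9, 30.1 and 35 CPM at Day 8 (log2 difference -1.38, SE 0.58, adjusted p = 0.693). Their summed level was 1450 and 1317 CPM at Day 3 and 2071 CPM in Day 8 replicate 1, the highest of these 5 libraries, against 653 and 623 CPM in the other Day 8 libraries. Saline gave 1147 and 2176 CPM. Without Day 8 replicate 1, 22 members were called lower, 9 passed the adjusted p and 0 were called higher. In Day 8 replicate 1, then, replication genes were above and mitosis genes below both Day 3 libraries.

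**Figure D2:**
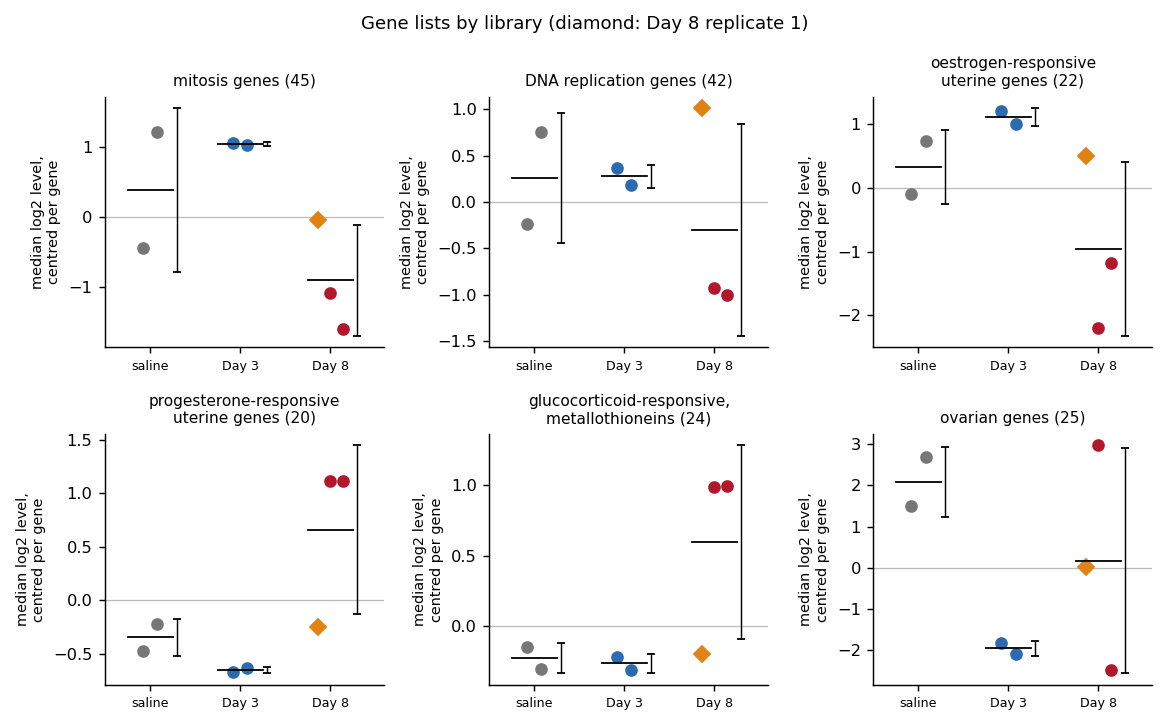
Median level of 6 gene lists in each library, as log2 values centred on the mean of each gene over the 7 libraries, with the number of tested genes in parentheses. Circles are single libraries of saline (grey), CXCL12 Day 3 (blue) and CXCL12 Day 8 (red), the orange diamond is Day 8 replicate 1, lines are group means and bars show SD (n = 2, 2 and 3). For mitosis genes the Day 8 libraries sit at -0.03, -1.08 and -1.59, below 1.05 and 1.02 at Day 3, whereas for DNA replication genes Day 8 replicate 1 is the highest at 1.01.

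Of 22 tested oestrogen-responsive uterine genes, 10 were called lower at Day 8 and 0 higher. The median was -2.11, and 6 members had positive differences. Sprr2f, a small proline-rich protein of the cornified envelope, gave 614 and 543 CPM at Day 3 and 103, 3.25 and 8.85 CPM at Day 8, next to 317 and 247 CPM in saline (log2 difference -5.23, SE 1.24, adjusted p = 0.652). Sprr2a2, Sprr2a3 and Sprr2g had the same order, with 80.6 and 64.9, 22.6 and 19 and 23 and 20.2 CPM at Day 3 and 26.6, 0.244 and 0.604, 10, 0 and 0.302 and 6.14, 0.65 and 3.02 CPM at Day 8. The Sprr2 genes are near-identical copies and reads with multiple alignments were counted, so the values of single members are uncertain. Calls of Sprr2 members within this list may for the same reason not be independent of each other. Every Day 8 library was below Day 3 in these 4 genes, with replicate 1 the highest of the 3.

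In 2 further genes of this list Day 8 replicate 1 stayed near Day 3. Lcn2, an iron-siderophore carrier secreted into the lumen, was at 386 and 357 CPM at Day 3, 230.4 CPM in Day 8 replicate 1 and 7.47 and 8.25 CPM in replicates 2 and 3 (log2 difference -3.83, SE 1.34, adjusted p = 0.693). Clca1, a secreted regulator of chloride currents, was at 209 and 174, then 162, then 0.487 and 1.21 CPM (log2 difference -5.21, SE 2.08, adjusted p = 0.693). Without replicate 1 the differences were log2 difference -5.46, SE 0.30, adjusted p = 0.00198 for Lcn2 and log2 difference -7.77, SE 0.49, adjusted p = 0.00266 for Clca1, and 12 of 21 list members were called lower, 10 of which passed the adjusted p, and 1 higher. The number of calls in this list depended on the method. It was 2 in edgeR with estimated counts and 4 of 13 where at least 1 CPM was required in every library, and 2 and 3 without Day 3 replicate 1 or 2. Ltf, lactotransferrin, a classical oestrogen product chosen here after its values were seen, did not pass the test, at 34.6 and 27.8 CPM at Day 3 and 28.3, 25.6 and 16.3 CPM at Day 8.

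Several of the genes with the largest falls belonged to none of the gene lists. Spink12, a protease inhibitor of the Kazal type, had 393 and 414 CPM at Day 3, 91 CPM in Day 8 replicate 1 and 0 and 2 counts in replicates 2 and 3 (log2 difference -7.95, SE 2.43, adjusted p = 0.689). Nrk, a kinase of the Nik family, gave 21.6 and 30.9 CPM at Day 3 and 2.71, 1.54 and 1.41 CPM at Day 8, with all 3 Day 8 libraries low (log2 difference -3.78, SE 0.59, adjusted p = 0.512). Serpinb5, the serpin called maspin, was at 13.9 and 14.3 CPM and then 4.79, 0.081 and 1.01 CPM, and Cpn1, the catalytic subunit of carboxypeptidase N, at 13.3 and 12.5 and then 6.56, 0.244 and 0 CPM. Crtac1, a matrix protein of cartilage, was not called with all libraries, since Day 8 replicate 1 had 28.6 CPM beside 25.5 and 32 CPM at Day 3 and 0.162 and 0.101 CPM in replicates 2 and 3 (log2 difference -7.03, SE 1.02, adjusted p = 0.0464 without replicate 1).

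Of 20 tested progesterone-responsive uterine genes, 6 were called higher at Day 8 and 1 lower. The median was 1.53, and 3 members had negative differences. Ihh, the hedgehog ligand that the epithelium sends to the stroma, measured 0.678 and 0.1 CPM at Day 3 and 2.6, 7.72 and 8.55 CPM at Day 8, with 4.34 and 3.06 CPM in saline (log2 difference 3.61, SE 0.70, adjusted p = 0.556). Fst, follistatin, which binds activins, was at 2.02 and 2.31 CPM at Day 3 and 84.7 and 121 CPM in Day 8 replicates 2 and 3, but at 3.33 CPM in replicate 1 (log2 difference 3.81, SE 1.40, adjusted p = 0.693). Lrp2, the endocytic receptor megalin, had 2.4 and 2.71 CPM at Day 3 and 7.5, 21.8 and 69.1 CPM at Day 8. The member called lower was Inhbb, the activin beta B subunit, with 109.7 and 116 CPM at Day 3 and 28.4, 44.6 and 21.8 CPM at Day 8 (log2 difference -1.80, SE 0.52, adjusted p = 0.676), and here replicate 1 was among the low libraries.

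Without Day 8 replicate 1, 12 members of the progesterone list were called higher, 8 of them past the adjusted p, and 1 was called lower. Leaving out Day 3 replicate 1 or 2, or Day 8 replicate 2 or 3, left 1 or 2 called higher, and edgeR with estimated counts called 11. The level in Day 8 replicate 1 decided several members. Cyp26a1, which degrades retinoic acid, and Irg1, which makes itaconate, both chosen after their values were seen, measured 5.52 and 0.104 CPM in replicate 1, 67.1 and 163 and 12.6 and 45.8 CPM in replicates 2 and 3, and 3.74 and 7.22 and 0.0067 and 0.301 CPM at Day 3. Day 8 replicate 1 thus lay within the Day 3 range in both. The 0.0067 CPM of Irg1 in Day 3 replicate 1, whose counts were estimated, stands for less than 1 read.

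Of 13 tested gland genes, 5 were called higher at Day 8 and 0 lower. The median was 1.09, and 3 members had negative differences. Prss28 and Prss29, serine proteases of the implantation stage, had 0 counts and 0.103 and 0.201 CPM at Day 3, 0 counts and 0.104 CPM in Day 8 replicate 1, and 123 and 186 and 627 and 905 CPM in replicates 2 and 3. Saline was at 0 counts for Prss28 and 0.579 and 0.105 CPM for Prss29. Against a floor of 3 counts per library at Day 3, Prss28 was at least 417.5-fold higher in Day 8 replicate 2 and 634.3-fold higher in replicate 3. Day 8 replicate 1 held no read. Spink1, another Kazal-type inhibitor, had the same pattern, with 0.486 and 0.201 CPM at Day 3, 0.104 CPM in replicate 1 and 1268 and 1957 CPM in replicates 2 and 3. Over all libraries Spink1 was not called (log2 difference 7.34, SE 3.4, adjusted p = 0.698), whereas without replicate 1 these 3 genes passed the adjusted p, at 0.00264, 0.00198 and 0.00699. Prss28 and Prss29 are similar neighbours, and reads may be shared between them.

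Other gland genes included Day 8 replicate 1. Sox17, a transcription factor of the glands, was at 54.6 and 52.1 CPM at Day 3 and 114, 76.6 and 156 CPM at Day 8 (log2 difference 1.09, SE 0.30, adjusted p = 0.67). Wfdc3, a whey-acidic-protein-type inhibitor, had 0.677 and 0.903 and then 2.19, 5.04 and 8.55 CPM. Ttr, the thyroid hormone and retinol carrier transthyretin, had 0 counts in both Day 3 libraries and 1.77, 0.894 and 4.63 CPM at Day 8. By the same floor, Day 8 replicates 1, 2 and 3 were at least 6.022-fold, 3.039-fold and 15.74-fold higher. Without replicate 1, 8 of 12 members were called higher and 3 passed the adjusted p. Without Day 8 replicate 3 none was called by limma in this list, and edgeR with estimated counts and all libraries called 8.

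Of 14 genes of uterine fluid transport, 3 were called higher and 1 lower, with a median of 0.65. Aqp11, a water channel, was at 1.92 and 2.21 CPM at Day 3 and 7.08, 8.37 and 16 CPM at Day 8 (log2 difference 2.06, SE 0.45, adjusted p = 0.652). Atp1b1, the beta subunit of the sodium pump, had 61 and 67.6 and 76.3, 134 and 193 CPM, and Guca2b, the guanylate cyclase activator uroguanylin, 3.07 and 3.91 and 3.23, 68.2 and 84.9 CPM. All Day 8 libraries were above Day 3 for the first 2, while replicate 1 remained at the Day 3 level for Guca2b. Without it, 6 were called higher and 1 lower, and 4 passed the adjusted p.

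Metallothioneins gave the smallest p-value of all genes. Mt1, which binds zinc and copper, measured 139 and 134 CPM at Day 3 and 373, 408 and 384 CPM at Day 8, and 254 and 279 CPM in saline. The 3 Day 8 libraries were close together, above the saline libraries and clear of Day 3 (log2 difference 1.59, SE 0.18, adjusted p = 0.267). Mt2 had 103 and 88.6 CPM at Day 3, 365, 383 and 520.0 CPM at Day 8 and 117 and 232 CPM in saline (log2 difference 2.19, SE 0.32, adjusted p = 0.512). Both were called in the limma fit over all libraries and in each of its 19 alternatives. The paralogs are similar, and reads may be shared.

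Windows before the RefSeq transcript starts of both are shown with the core of the metal response element, the binding motif of the zinc sensor MTF1. The capitals mark TGCACNC or TGCGCNC on either strand. Of all gene symbols, tested here or not, 23.8% hold a match in a window of this length. So do 38.1% of the glucocorticoid and metallothionein list, 38.9% of the mitosis genes and 50% of the DNA replication genes. The 250 bases before the transcript start are at chr8:94178839-94179088 for Mt1 and chr8:94172368-94172617 for Mt2, both on the plus strand (RefSeq, GRCm38.p6).
Mt1: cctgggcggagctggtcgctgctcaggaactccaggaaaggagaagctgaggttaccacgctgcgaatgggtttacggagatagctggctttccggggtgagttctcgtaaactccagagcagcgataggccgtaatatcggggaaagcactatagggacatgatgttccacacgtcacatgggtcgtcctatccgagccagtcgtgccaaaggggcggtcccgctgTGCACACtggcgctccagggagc
Mt2: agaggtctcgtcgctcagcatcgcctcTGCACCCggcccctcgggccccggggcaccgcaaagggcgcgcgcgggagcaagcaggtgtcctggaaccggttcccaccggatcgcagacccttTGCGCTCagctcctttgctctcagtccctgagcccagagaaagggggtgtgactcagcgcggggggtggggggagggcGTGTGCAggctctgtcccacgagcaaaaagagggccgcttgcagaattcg
Within these windows Mt1 holds 1 match and Mt2 holds 3. Bases after the start used, and those further upstream, were not searched. The numbers are therefore not counts of all such elements of either gene. A match is a description of the letters, and binding was not measured.

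With the other glucocorticoid-responsive genes, the metallothionein list had 24 tested members, of which 5 were called higher and 1 lower (Lcn2, already described), with a median of 0.94. Tsc22d3, the glucocorticoid-induced leucine zipper, was at 33.6 and 38.9 CPM at Day 3 and 48.8, 160.4 and 169.6 CPM at Day 8 (log2 difference 1.65, SE 0.53, adjusted p = 0.689). Replicate 1 was above Day 3 but much closer to it than the others. Without it 13 were called higher, 8 of them past the adjusted p, and the median was 1.57. Of 22 clock genes, 4 were called higher and 1 lower, with a median of 0.60. Per3, a repressor of the clock loop, had 1.83 and 2.11 CPM at Day 3 and 3.75, 10.7 and 8.65 CPM at Day 8, and Bhlhe40, another repressor, 34.6 and 41.7 and 14.7, 8.53 and 7.95 CPM (log2 difference -1.93, SE 0.46, adjusted p = 0.652). Bhlhe40 was the member called lower. With replicate 1 left out, 7 clock genes were called higher and 1 lower. The time of day of tissue collection is not named in the sources used here, and its part in the result was not tested.

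**Figure D3:**
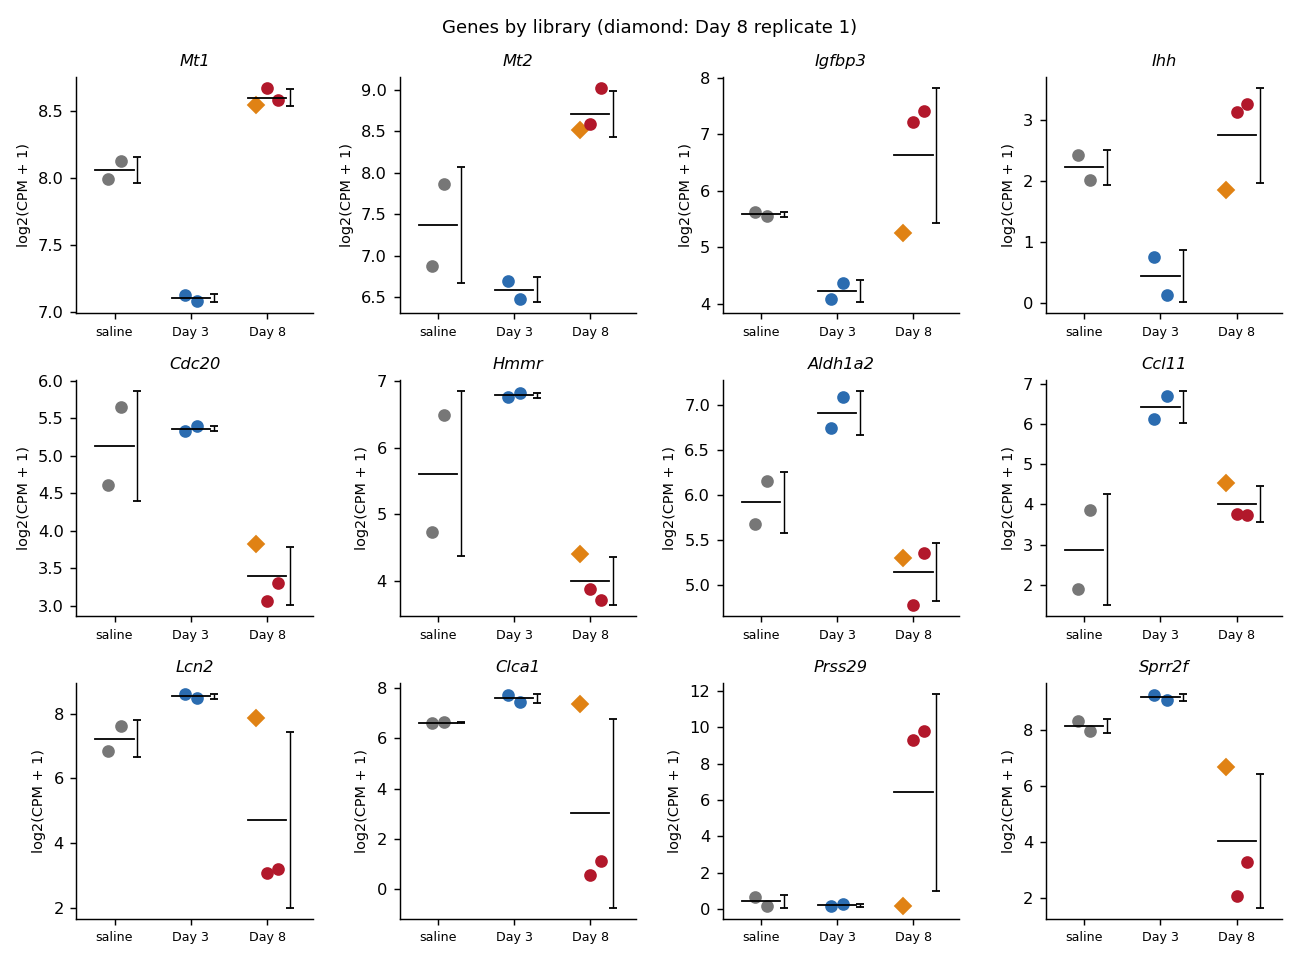
Levels of 12 genes in each library as log2(CPM + 1). Circles are single libraries of saline (grey), CXCL12 Day 3 (blue) and CXCL12 Day 8 (red), the orange diamond is Day 8 replicate 1, lines are group means and bars show SD (n = 2, 2 and 3). In Mt1, Mt2, Ihh, Cdc20, Hmmr, Aldh1a2 and Ccl11 the diamond lies nearer the other Day 8 libraries than Day 3, in Lcn2, Clca1 and Prss29 it lies at or close to the Day 3 level, and in Igfbp3 and Sprr2f it is between the days but nearer Day 3.

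Growth factor and ligand genes were called in both directions. Igfbp3, which binds insulin-like growth factors in tissue, gave 16 and 19.7 CPM at Day 3 and 37.3, 148 and 169 CPM at Day 8, with 48.1 and 46 CPM in saline (log2 difference 2.46, SE 0.56, adjusted p = 0.652). All Day 8 libraries were above Day 3, and replicate 1 alone was not above saline. In the same list of 16 genes, Stc2, a secreted inhibitor of the protease that cuts these binding proteins, was lower, at 29.3 and 26.4 and then 10.3, 8.29 and 7.64 CPM (log2 difference -1.69, SE 0.45, adjusted p = 0.652). The list had 1 member called higher and 1 lower, with a median of 0.35, and 4 higher and 1 lower without replicate 1. Igf1r, the receptor, did not reach a fold of 2, at 51.7 and 63.1 CPM at Day 3 and 64.7, 124 and 132 CPM at Day 8.

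Of 39 Wnt genes 6 were called higher and 0 lower, with a median of 0.48. Lgr5, the receptor for R-spondins, was at 1.54 and 2.01 CPM at Day 3 and 5.31, 7.96 and 13 CPM at Day 8 (log2 difference 2.01, SE 0.41, adjusted p = 0.651). Sfrp2, a secreted Wnt antagonist, had 10.3 and 14.7 and 35.6, 35.7 and 48.8 CPM, and Wnt11, a ligand, 0.484 and 0 and 1.46, 1.87 and 5.63 CPM. In all 3 the Day 8 libraries were above Day 3, and the saline libraries held 10.7 and 9.59 CPM of Lgr5 and 99.3 and 24.9 CPM of Sfrp2. Without Day 8 replicate 1, 10 Wnt genes were called higher and 2 lower, and without either Day 3 library 3 were called higher.

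Of 24 prostaglandin genes 4 were called higher and 0 lower, although the median was 0.04. Pla2g10, a secreted phospholipase that frees arachidonic acid, measured 0.295 and 0.702 CPM at Day 3 and 5.62, 9.1 and 20.6 CPM at Day 8 (log2 difference 3.97, SE 0.62, adjusted p = 0.512). The receptors Ptger2 and Ptgir had 1.35 and 1.71 and 1.82 and 1.2 CPM at Day 3 and 7.5, 16.4 and 43.9 and 3.65, 5.28 and 6.14 CPM at Day 8. Of 9 ligands and receptors of the EGF family, 3 were called lower and 0 higher, namely Hbegf, Nrg2 and Nrg1. Hbegf, the heparin-binding ligand linked to implantation, was at 16.2 and 19 CPM at Day 3 and 12, 5.61 and 5.33 CPM at Day 8 (log2 difference -1.34, SE 0.44, adjusted p = 0.69), and Nrg2, a neuregulin, at 8.99 and 12.5 and 4.06, 3.82 and 3.12 CPM. With Day 8 replicate 1 left out, 5 prostaglandin genes were called higher and 1 lower, and 1 EGF family gene higher and 4 lower.

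The retinoic acid list was mixed, with 5 of 26 called higher, 3 called lower and a median of 0.22. Aldh1a2, the enzyme that makes retinoic acid in the stroma, was at 106 and 135 CPM at Day 3 and 38.5, 26.5 and 39.9 CPM at Day 8 (log2 difference -1.70, SE 0.29, adjusted p = 0.519). Dhrs9, which oxidises retinol, had 16.8 and 9.23 and 5.42, 0.162 and 0.402 CPM, and Stra6, the cellular receptor that takes up retinol, was called higher, at 2.97 and 4.41 and 6.67, 9.83 and 10.4 CPM. Crabp1, which binds retinoic acid in the cytosol and was chosen after its values were seen, was at 39.2 and 42 CPM at Day 3, 35.4 CPM in Day 8 replicate 1 and 1.54 and 1.91 CPM in the other Day 8 libraries. Replicate 1 was thus on the Day 8 side for Aldh1a2 and near Day 3 for Crabp1. Of 14 decidual genes, 4 were called lower and 1 higher. Alpl, the alkaline phosphatase of decidual stroma, was at 19.5 and 18.4 CPM at Day 3 and 4.69, 4.87 and 5.03 CPM at Day 8 (log2 difference -2.0, SE 0.50, adjusted p = 0.652). Egln3, an oxygen-sensing hydroxylase, and Hk2, the hexokinase of fast-growing cells, were the 2 genes called lower among 34 of glycolysis and hypoxia, at 19 and 21.1 and 48.3 and 42.6 CPM at Day 3 and 7.6, 6.99 and 4.53 and 22.4, 22.4 and 20.2 CPM at Day 8. In the fit without replicate 1, 5 of 25 retinoic acid genes were called higher and 4 lower, 1 and 3 of the decidual genes, and 4 and 4 of the glycolysis and hypoxia genes.

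Of 24 NK cell and cytotoxic genes, 4 were called higher and 0 lower, 22 had positive differences, and the median was 0.73 (2.25% of all genes tested were called higher). Ncr1, the activating receptor of NK cells, was at 3.26 and 2.51 CPM at Day 3 and 3.65, 10.9 and 14.3 CPM at Day 8, Ccl5, a chemokine of cytotoxic cells, at 4.89 and 5.52 and 12.2, 22.6 and 29.4 CPM, and Klra7, a receptor of a family with shared sequence, at 3.83 and 2.71 and 7.19, 7.39 and 9.96 CPM. All Day 8 libraries were above Day 3 in these 3, and the fourth member called was Klrg1. Summed over the list, the level was 161 and 159 CPM at Day 3 and 137, 282 and 353 CPM at Day 8, so that replicate 1 lay below Day 3 in the sum. Without replicate 1, 9 were called higher and 0 passed the adjusted p, and without Day 3 replicate 2, without Day 8 replicate 3 or with the replicate block 0 were called.

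Of 13 MHC class II and antigen presentation genes, 2 were called higher and 0 lower. Cd83, a mark of mature dendritic cells, was at 3.36 and 2.41 CPM at Day 3 and 8.02, 22.7 and 18.8 CPM at Day 8 (log2 difference 2.26, SE 0.60, adjusted p = 0.652), with 33.6 and 9.17 CPM in saline. Among 48 chemokine ligands and receptors, 2 were called higher and 1 lower. The latter was Ccl11, eotaxin, which recruits eosinophils, with 69.1 and 103 CPM at Day 3, 22.2, 12.7 and 12.3 CPM at Day 8 and 2.75 and 13.5 CPM in saline (log2 difference -2.43, SE 0.66, adjusted p = 0.67). All Day 8 libraries were below Day 3, and replicates 2 and 3 were within the saline range. Leaving out Day 8 replicate 1 gave 6 higher and 0 lower of the MHC class II list and 7 higher and 2 lower of the chemokine list. Of 27 macrophage, 19 neutrophil, 9 T cell and 7 B cell genes, 2, 0, 0 and 1 were called lower and 0, 1, 1 and 0 higher. The balance of the macrophage genes turned without Day 8 replicate 1, where 8 were called higher, 2 of them past the adjusted p, and 1 lower. The neutrophil, T cell and B cell genes then had 1, 2 and 0 called higher and 0, 0 and 1 lower. Of 36 hedgehog, BMP and TGF-beta genes 2 were called higher and 1 lower, of 24 basement membrane genes 2 and 1, of 27 integrin genes 2 and 0, of 34 immediate early genes 2 and 0, of 47 interferon-stimulated genes 1 and 1, of 29 cholesterol synthesis genes 0 and 2, and of 5 mammary or salivary genes 0 and 1. Among all genes tested, 2.25% were called higher and 2.41% lower, and 5.69% and 5.63% without Day 8 replicate 1. Calls over all genes thus rose without replicate 1, and several of these list counts also moved. When it was left out, 11 immediate early genes were called higher, 5 of them past the adjusted p, and 1 lower, and 10 interferon-stimulated genes were called higher, 2 of them past the adjusted p, and 1 lower. The counts higher and lower were then 6 and 2 for hedgehog, BMP and TGF-beta, 3 and 1 for basement membrane, 5 and 1 for integrin, 2 and 4 for cholesterol synthesis and 0 and 3 for mammary or salivary genes. Of 30 genes of the unfolded protein response, limma with all libraries called 0, 2 had an unadjusted P under 0.05, and edgeR with estimated counts and limma without replicate 1 each called 1. Of 74 respiratory chain genes, limma called 0, none had an unadjusted P under 0.05, and edgeR called 0, while limma without replicate 1 called 2 lower.

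Among cell type markers of the horn itself, of 23 epithelial markers 3 were called higher and 1 lower. Msx1, a transcription factor of the luminal epithelium, was at 53.2 and 55.5 CPM at Day 3 and 258, 107 and 275 CPM at Day 8, beside 162 and 173 CPM in saline (log2 difference 1.89, SE 0.39, adjusted p = 0.651). Of 33 claudins and junction genes 4 were called higher and 1 lower. Cldn3 and Cldn10, tight junction claudins, had 55.3 and 57.7 and 65.6 and 64.7 CPM at Day 3 and 69.6, 120.3 and 254 and 126, 176 and 268 CPM at Day 8, whereas Cldn2, a pore-forming claudin, had 6.6 and 6.72 and then 2.6, 2.76 and 0.604 CPM. All 3 claudins were called. Of 26 stromal markers 3 were called lower and 0 higher, of 39 endothelial and angiogenesis genes 0 lower and 2 higher, and of 23 smooth muscle markers 1 lower and 0 higher. The stromal markers turned without Day 8 replicate 1, to 6 called higher and 2 lower, and the epithelial markers had 5 called higher and 7 lower. In the same fit 4 claudins and junction genes were called higher and 4 lower, 7 endothelial genes higher and 0 lower, and 4 smooth muscle markers higher and 1 lower. The summed smooth muscle markers were 7062 and 7847 CPM at Day 3, 4310 CPM in Day 8 replicate 1, 9929 and 9388 CPM in Day 8 replicates 2 and 3, and 7510 and 4503 CPM in saline. The muscle markers thus differed between libraries of the same day, and their part in the results was not tested.

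Of 24 collagens, 2 were called lower and 0 higher, with a median of -0.51. Col6a6, a chain of the microfibrillar collagen VI, was at 12.6 and 19.1 CPM at Day 3 and 7.71, 1.71 and 2.82 CPM at Day 8 (log2 difference -2.26, SE 0.66, adjusted p = 0.676). Of 36 matrix peptidases and inhibitors, 2 were called lower and 2 higher. Ctsk, a cathepsin that cuts collagen, was among the former, at 91.9 and 104 and 36.8, 39.1 and 56.3 CPM, and Mmp3, stromelysin, among the latter, at 2.97 and 2.71 and 6.35, 14 and 15.3 CPM. With replicate 1 left out, 1 collagen was called higher and 3 lower, and 4 peptidases or inhibitors higher and 2 lower.

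The largest rises included genes of the ovary, whose level differed between libraries of the same day. Hsd3b1, a steroid-making enzyme of ovary and adrenal, had 0 counts in both Day 3 libraries, 53.1, 2342 and 0.402 CPM in Day 8 replicates 1, 2 and 3, and 83.5 and 774 CPM in saline (log2 difference 8.42, SE 2.82, adjusted p = 0.693). The Day 8 libraries thus ranged from close to 0 to the highest of the series. Cyp17a1, which makes androgens in the theca, had 0 counts at Day 3 and 2.08, 42.4 and 0.201 CPM at Day 8, and Gdf9, a factor of the oocyte, 0.391 and 0.401 and 6.46, 22.1 and 3.02 CPM. Nlrp5, another oocyte gene, had 0 counts at Day 3 and 2.71, 11.9 and 0.302 CPM at Day 8. Saline held 22.7 and 22 CPM of Gdf9 and 14.2 and 11.2 CPM of Nlrp5.

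Of 25 tested ovarian genes, 5 were called higher and 0 lower. The summed level of all 26 listed was 117 and 156 CPM at Day 3, 197, 4818 and 117 CPM at Day 8 and 493 and 1496 CPM in saline. Day 8 replicate 2 therefore carried most of the ovarian signal of its group. Without it, 3 members were called higher and 1 lower, and the median was 0.95 in place of 2.57. The count rose to 15 called higher without Day 8 replicate 3, with a median of 3.94, to 15 with the replicate block and to 14 in edgeR with estimated counts, and fell to 2 without either Day 3 library. Leaving out Day 8 replicate 1 gave 4 higher and 1 lower, and with at least 1 CPM required in every library 0 were called. Acsbg1, an acyl-CoA synthetase, was another of the largest rises and had the same order of Day 8 libraries, at 1.25, 42.2 and 0.402 CPM. It had 0 counts in Day 3 replicate 1, 0.201 CPM in Day 3 replicate 2 and 7.67 and 24.5 CPM in saline. What part ovarian tissue had in the differences of these genes was not tested.

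Fat also differed within a day. The summed level of the 30 listed adipocyte genes, 28 of them tested, was 4248 CPM in Day 3 replicate 1 and 820 CPM in Day 3 replicate 2. It was 801, 1094 and 880 CPM at Day 8 and 2233 and 4559 CPM in saline. Adipoq and Lep, adipokines, were the 2 members called lower, at 254 and 34.5 and 7.27 and 2.81 CPM at Day 3 and 20.8, 32.3 and 20.8 and 0.521, 1.62 and 1.91 CPM at Day 8. Without Day 3 replicate 2 the list median was -1.49, and without Day 3 replicate 1 it was 0.28. The count called lower was 15 without Day 3 replicate 2, 9 in edgeR and in DESeq2 with estimated counts, and 0 without Day 3 replicate 1 or Day 8 replicate 1. Of 25 oviduct and 11 erythrocyte genes, 1 and 0 were called lower and 0 higher, the same as without Day 8 replicate 1. With Day 8 replicate 2 left out, 8 oviduct genes (list median -1.76) and 2 erythrocyte genes were called lower.

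The remaining genes among the largest rises follow. By the rule that chose them, all the largest rises were above Day 3 in every Day 8 library. Krt23, a keratin, was at 1.16 and 0.903 CPM at Day 3 and 5.83, 28 and 38.3 CPM at Day 8, above 3.04 and 3.79 CPM in saline (log2 difference 3.92, SE 0.71, adjusted p = 0.519). Sectm1b, a secreted transmembrane protein, had 0.103 and 0.502 and 0.521, 35 and 51.3 CPM, Slc5a11, a sodium-coupled inositol transporter, 0 and 1 counts and then 0.417, 18.8 and 38.3 CPM, and 8430408G22Rik 3.46 and 3.41 and 5.21, 131 and 213 CPM. In these 3, replicate 1 was just above Day 3 and the other Day 8 libraries far above it. For Sectm1b, Day 8 replicate 1 and Day 3 replicate 2 each held 5 counts. Without replicate 1 their adjusted p was 0.0078, 0.0445 and 0.00699.

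The study followed genes of receptivity, vessel growth and CXCL12 signalling. It compared most of them between CXCL12 and saline treatment, by PCR or staining, whereas both groups compared here received CXCL12. Of 15 such genes, limma with all libraries called 0 and edgeR with estimated counts called 0. In limma 1 had an unadjusted P under 0.05, and their median was 0.24. When Day 8 replicate 1 was left out, 2 were called higher. Cxcl12 itself was at 45.9 and 59.6 CPM at Day 3, 39.1 CPM in Day 8 replicate 1 and 138 and 106 CPM in replicates 2 and 3, a difference within the spread of the Day 8 libraries (log2 difference 0.72, SE 0.47, adjusted p = 0.741). Without replicate 1 it was called, with log2 difference 1.23, SE 0.24, adjusted p = 0.0759. The infused protein carries no RNA, so these reads count transcripts of the tissue. Cxcr4 was at 7.66 and 9.53 CPM at Day 3 and 14.8, 11.4 and 11.1 CPM at Day 8 (log2 difference 0.45, SE 0.32, adjusted p = 0.753). Ackr3 had 38.8 and 32.2 CPM at Day 3 and 18.9, 18.8 and 23.8 CPM at Day 8 (log2 difference -0.79, SE 0.25, adjusted p = 0.689), with all Day 8 libraries below Day 3 and a fold under 2.

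Itgb3, an integrin of the receptive epithelium, gave 24.8 and 31.3 CPM at Day 3 and 10.1, 21.1 and 22.5 CPM at Day 8 (log2 difference -0.72, SE 0.35, adjusted p = 0.712). Lif, the cytokine needed for implantation, was at 1.26 CPM or below in all libraries, with 1.25 and 0.903 CPM at Day 3 and 0.104, 0.487 and 0.604 CPM at Day 8. Spp1, osteopontin, had 9 and 11.1 and 4.79, 15.5 and 16.7 CPM against 7.67 and 75.1 CPM in saline. Among vessel genes, Pecam1 was at 48.1 and 60.1 CPM at Day 3 and 33.3, 79 and 84.4 CPM at Day 8, Tek, an angiopoietin receptor, at 4.79 and 6.12 and 2.71, 14.9 and 10.7 CPM, and Vegfa, which drives vessel growth, at 29.8 and 40.6 and 39.6, 37.6 and 37.1 CPM. Day 8 replicate 1 was the lowest of the 5 libraries for Pecam1 and Tek. The fitted differences of Cd34, Flt1, Tie1, Angpt1, Angpt2 and Hif1a lay between -0.06 and 0.43. None of these values shows that the days were alike, since the standard errors reached 0.60 for Tek, 0.90 for Spp1 and 0.97 for Lif.

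How far Day 8 replicate 1 followed its label was measured gene by gene, on a scale on which 0 is the mean of the Day 3 libraries and 1 is the mean of Day 8 replicates 2 and 3. Over the 693 called genes its median position was 0.56, with quartiles of 0.33 and 0.87, and 309 (44.6%) were nearer Day 3. These genes were called with replicate 1 in the fit. Over the 462 genes that passed the adjusted p without replicate 1, the median was 0.11 and 88.1% lay nearer Day 3. These 462 were chosen by the difference between the same libraries that set 0 and 1. That choice can itself place a library left out of it away from 1. Among genes already described, Mt1, Mt2, Inhbb, Sox17, Alpl and Sfrp2 were at 0.96, 0.88, 1.00, 1.13, 0.90 and 0.95, whereas Clca1, Guca2b, Prss29 and Spink1 were at 0.01, 0.00, -0.02 and -0.09.

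**Figure D4:**
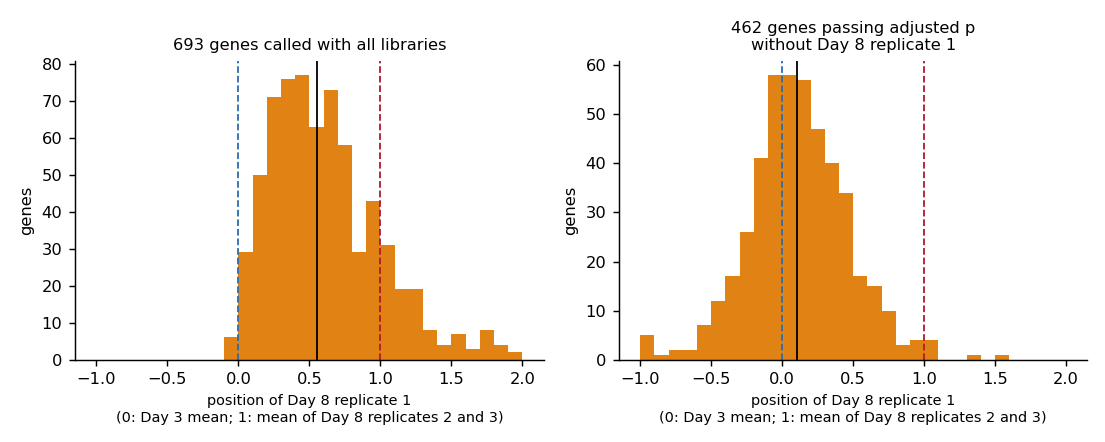
Position of Day 8 replicate 1 on the scale from the Day 3 mean (0, blue dashed line) to the mean of Day 8 replicates 2 and 3 (1, red dashed line), as the number of genes in each bin. The left panel holds the 693 genes called with all libraries and the right panel the 462 genes that passed the adjusted p without replicate 1, with values beyond the axis placed in the end bins and the black line at the median. The medians are 0.56 and 0.11.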

How the data were processed

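QuantSeq 3′ reads of 7 libraries of mouse uterine horn were used. The authors aligned reads with Bowtie2 and took each gene's count from Bedtools coverage, keeping multiply aligned reads; the processing notes list mm10 and hg19 with no role, and versions are not given in the sources used here. The deposited values were read counts per gene symbol, not normalized, in 6 tables. For Day 3 replicate 1 the deposited values were log2 of the authors' normalized counts plus 1. Undone and divided by a factor of 1.053, 96.7% of 5945 low values came within 0.1 of a whole number (20% would by the tolerance alone), and the rounded values served as estimated counts. Each table lists 23282 rows, 35 symbols of which stand on more than one row.

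All tables were brought to log2(count + 1) at one library total and quantile-normalized, as the study did. Differences on this scale understate the change of low genes. Genes with at least 1 CPM in at least 2 libraries were fitted by limma 3.58.1 (lmFit, eBayes with a trend; R 4.3.3) in 3 groups with 4 residual degrees of freedom. Calls required a fold of at least 2 with P under 0.05 before adjustment, and adjusted p-values are Benjamini-Hochberg values by limma over all genes tested. Alternatives included edgeR 4.0.16 and DESeq2 1.42.0 on the counts. The fits were tested on simulated data. A floor of 3 counts per library was used for genes at 0, and it covers counting error only. Standard errors are those of limma and rest on the spread between libraries.

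The comparison and 43 gene lists were chosen with earlier results of these data known. Named genes are the 10 largest rises and falls among called genes that separate all libraries at 10 CPM or more in the higher group, 5 each way without Day 8 replicate 1, the 3 members of each list with the smallest P, and the study's 15 genes; others are said to be chosen after their values were seen. Some genes that this rule names are not reported here. Promoter windows are the 250 bases before RefSeq transcript starts.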

Additional observations from a re-analysis of the deposited data

How the results depend on the processing

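Of 98 named genes, 76 were called, and none of the 76 changed sign in any of the 19 alternatives that tested it. Of the 76, 30 were called under every alternative in which they were tested. Some of the 30 were not tested in all 19. Ttr was tested in 15, and not in the limma fit without Day 8 replicate 1. Among the 22 not called, 6 changed sign. Over the left-out libraries Esr1 ranged from -0.19 to 0.08, Spp1 from -0.22 to 0.55, Cd34 from -0.19 to 0.11, Vegfa from -0.04 to 0.34, Angpt2 from -0.12 to 0.74 and Hif1a from -0.14 to 0.20; in addition Spp1 was -0.22 with the replicate block, Vegfa -0.06 in edgeR on the 6 count libraries, and Cd34 0.02 and Hif1a 0.10 in edgeR with estimated counts without Day 8 replicate 1 (chosen after seeing the data). The 693 called genes became 426 with the replicate block and 325 in edgeR on the 6 count libraries (62.5% higher at Day 8), and ranged from 277 to 1675 over the left-out libraries. In edgeR with estimated counts without Day 8 replicate 1 they were 1857, of which 583 passed the adjusted p and 58.4% were higher. The count passing the adjusted p, 0 in the main fit, was 3 with the CXCL12 libraries alone, 2 without the trend, 240 in DESeq2 and between 0 and 462 over the left-out libraries. With the CXCL12 libraries alone, where saline did not enter the spread, 701 genes were called. In that fit 1672 had an unadjusted P under 0.05, against 1070 in the main fit. Genes whose libraries did not overlap, 4710 in all, numbered between 5898 and 9472 over the left-out Day 8 libraries. The oestrogen list's median was -0.44 with at least 1 CPM in every library, where fewer genes were tested, and the glucocorticoid and metallothionein median ranged from 0.61 to 1.57 over the left-out libraries. Of 43 lists, 32 kept the sign of their median under all 11 alternatives tried for them. The other causes were not tested. No label ties same-numbered libraries of the 2 days to each other: deviations of same-numbered libraries correlated at -0.0032 and -0.030, and 302 of the 426 genes called with the block were among the 693. Differences under a fold of 2 were not called by rule, and genes without 1 CPM in at least 2 libraries were not tested.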
